A study of Saccharomyces cerevisiae with 10 samples.

Results

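Origin licensing is the step that marks every replication origin for use once in a cell cycle, and 10 genes of its machinery were followed in budding yeast: MCM2, MCM3, MCM4, MCM5, MCM6, MCM7, CDC6, ORC1, ORC6 and TAH11. They were taken by name, with no threshold on a measured value but with earlier results of these data known, and all 10 were found among the 5449 genes measured, each by 1 probe set. Expression was compared on Affymetrix arrays between cells held for 1 h at 35 °C and cells held at room temperature (RT, 25 °C), in 5 strains with temperature-sensitive alleles of parts of the SCF ubiquitin ligase. The 5 alleles were cdc53-1 (strain name py175), cdc34-3 (py24), cdc4-3 (py187), skp1-11 (labelled W303) and skp1-25 (py1374). Each strain gave 1 array at 35 °C and 1 at RT, so there were 5 arrays per temperature, all from mid-log cultures in the rich medium YPDA. Every group carries an SCF allele and none is wild type for the SCF, so warming and loss of SCF function cannot be told apart in the comparison of temperatures. Separate cultures of 1 strain are not named in the labels, and p-values therefore rest on how much the change with temperature differs between strains. Values per strain are given throughout in the order cdc53-1, cdc34-3, cdc4-3, skp1-11, skp1-25.

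In the textbook account, the origin recognition complex (ORC, Orc1 to Orc6) sits on replication origins, and in late mitosis and G1 it recruits Cdc6 and Cdt1, which TAH11 encodes in yeast. These loaders place the ring-shaped Mcm2 to Mcm7 helicase around DNA, and that assembly is the pre-replicative complex. Cyclin-dependent kinase then fires origins and blocks new loading in the same cycle. The SCF touches this system from both sides: with the F-box protein Cdc4 it destroys the kinase inhibitor Sic1, which lets cells enter S phase, and it also destroys phosphorylated Cdc6 protein. Several MCM genes and CDC6 are transcribed around the exit from mitosis through early cell cycle boxes bound by Mcm1, which the repressors Yox1 and Yhp1 oppose, and the transcription factor Swi5 adds to CDC6 expression at the same time. Arrays measure transcripts, so the stability of Cdc6 or Sic1 protein was not measured, and in these bulk cultures fewer cells in a cell cycle stage and less RNA per cell cannot be told apart.

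The deposited levels are on a log2 scale, inferred from their range, and array medians lay between 10.96 and 11.14. Levels are compared only within a gene, since each gene has its own probe set. The cdc53-1 arrays stood apart before any comparison of temperature. The mean level of 7 a-specific genes was 7.07 in cdc53-1 against 10.74 to 11.64 in the other 4 strains at 35 °C, and 7.01 against 11.24 to 11.92 at RT. The mean level of 8 haploid-specific genes was 7.30 against 10.50 to 10.75 at 35 °C and 6.86 against 10.69 to 10.88 at RT. All 15 genes of both lists differed in level between strains in limma's F-test (adjusted p under 0.05), as did 8.75% of all genes. The part of this difference in the results was not tested. Transcript levels of the mutated genes do not check the labels, because these alleles impair the protein.

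None of the 10 licensing genes passed the test for a change with temperature over the 5 strains (limma with strain as a block, Benjamini-Hochberg adjustment over all genes, threshold 0.05). Across the array 957 of 5449 genes, 17.6%, passed it, 706 higher and 251 lower at 35 °C, or 524 and 503 when each array was centred on its median. Without cdc53-1 the count of licensing genes past the test was 0 of 10 as well. The median difference, 35 °C minus RT, was -0.03 (log2) over the 10 genes, against 0.05 over all genes. The median of the 10 genes depended on the scale and on 1 strain: it was -0.10 with each array centred on its median, against -0.02 over all genes, and 0.08 without skp1-25, against 0.06 over all genes. The median size of the difference without its sign was 0.0553 over the 10 genes, against 0.155 over all genes. It was 0.12, against 0.159, with centred arrays, 0.118, against 0.166, without skp1-25 and 0.108, against 0.164, without cdc53-1. The error was about the same in both: the 95% interval of a licensing gene reached a median of 0.221 to each side, against 0.21 for the median gene.

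The helicase genes, apart from MCM3, varied less over the 10 arrays than the median gene. MCM2 stood at 11.04, 11.10, 11.47, 11.41 and 11.14 at 35 °C, against 10.98, 11.06, 11.15, 11.38 and 11.34 at RT. MCM3 stood at 10.99, 10.66, 11.33, 11.08 and 10.66 at 35 °C, against 10.81, 10.73, 11.01, 11.02 and 11.42 at RT. In both genes the cdc4-3 array was the highest at 35 °C, and the 2 temperatures overlapped. The ring opens between Mcm2 and Mcm5 when it is loaded, and Mcm3 carries a contact to ORC and Cdc6. MCM5, also named CDC46, stood at 10.86, 10.57, 10.81, 10.74 and 10.41 at 35 °C, against 10.76, 10.54, 10.72, 10.85 and 10.88 at RT, and its lowest array was skp1-25 at 35 °C.

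MCM4 stood at 11.23, 11.40, 11.47, 11.39 and 11.17 at 35 °C, against 11.15, 11.39, 11.16, 11.27 and 11.40 at RT. MCM6 stood at 11.20, 10.88, 11.17, 11.21 and 10.96 at 35 °C, against 11.18, 11.05, 11.15, 11.17 and 11.26 at RT. MCM7 stood at 11.68, 11.68, 11.91, 11.71 and 11.65 at 35 °C, against 11.68, 11.60, 11.86, 11.64 and 11.95 at RT. Again the temperatures overlapped in all 3 genes, and in each of them the skp1-25 array was lower at 35 °C than at RT. From lowest to highest of the 10 arrays, the 6 MCM genes spanned 0.321 (MCM4) to 0.765 (MCM3) on the log2 scale, against 0.715 for the median gene of the array. MCM7 and MCM6 spanned 0.356 and 0.380, and 7.43% of all genes had a smaller span than MCM4.

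**Figure D1:**
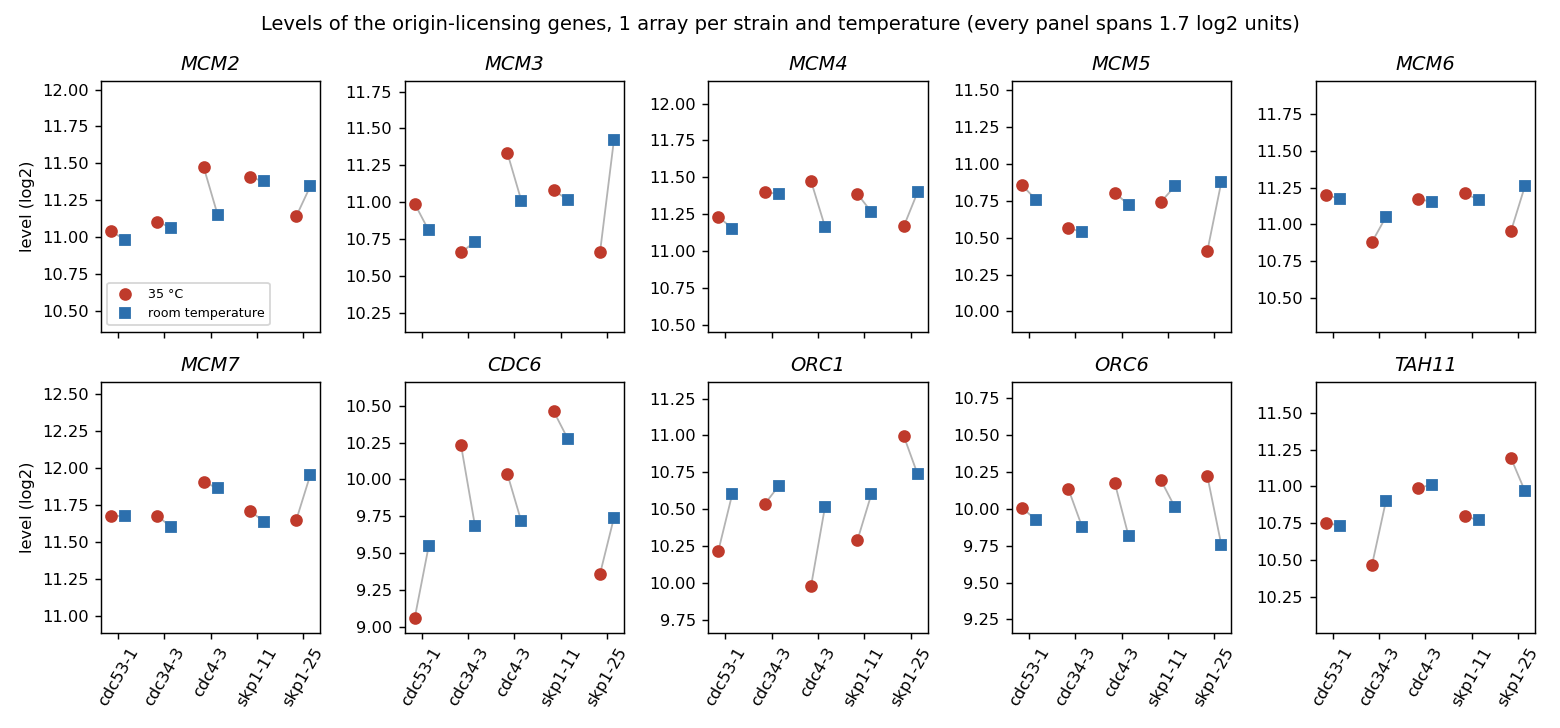
Level (log2) of each of the 10 licensing genes in each strain, with 1 array at 35 °C (red circle, left) and 1 at RT (blue square, right) joined by a line; every panel spans the same height but has its own floor. The MCM genes change by -0.17 to 0.32 outside skp1-25, and all 6 are lower at 35 °C in skp1-25, by -0.20 (MCM2) to -0.76 (MCM3). CDC6 spreads from 9.06 to 10.46, and ORC6 is higher at 35 °C in every strain.

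Averaged over the 5 strains, MCM2 was 11.23 ± 0.19 at 35 °C and 11.18 ± 0.17 at RT (SD, n = 5 each), a difference of 0.05 with a 95% interval of -0.15 to 0.25 (limma adjusted p = 0.713). MCM4 differed by 0.06 (-0.15 to 0.26, limma adjusted p = 0.682). MCM3 had the widest interval of the 6, -0.43 to 0.32 around -0.05 (limma adjusted p = 0.841). MCM5 differed by -0.07, MCM6 by -0.08 and MCM7 by -0.02, with limma adjusted p from 0.501 to 0.877. Across the 6 genes the intervals reached from 0.743 to 1.25 times the RT level, so a mean change of the helicase genes beyond those bounds lies outside every one of them. The signs of these small means were not fixed: those of MCM2 and MCM4 turned negative when arrays were centred or quantile normalized.

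CDC6, the loader that the SCF itself targets as a protein, had the widest span of the 10 genes. Its transcript stood at 9.06, 10.23, 10.04, 10.46 and 9.36 at 35 °C, against 9.55, 9.69, 9.72, 10.28 and 9.74 at RT. The lowest 2 of all 10 arrays were cdc53-1 and skp1-25 at 35 °C, and the highest 2 were both arrays of skp1-11. The change with temperature went both ways: -0.48 in cdc53-1 and -0.38 in skp1-25, against 0.54 in cdc34-3, 0.32 in cdc4-3 and 0.18 in skp1-11. The mean was 9.83 ± 0.59 at 35 °C and 9.79 ± 0.28 at RT (SD, n = 5 each), a difference of 0.04 with an interval of -0.36 to 0.43 (limma adjusted p = 0.903), and its sign turned with the scaling of the arrays.

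TAH11, which encodes the Cdt1 partner of the helicase, stood at 10.75, 10.47, 10.99, 10.80 and 11.19 at 35 °C, against 10.73, 10.90, 11.01, 10.77 and 10.97 at RT. The 35 °C array of cdc34-3 was the lowest and that of skp1-25 the highest, and the other 3 strains held nearly the same level at both temperatures, with changes from -0.02 to 0.03. Its mean differed by -0.04 (interval -0.27 to 0.20, limma adjusted p = 0.827). The 2 loader genes did not move in step: in cdc34-3 CDC6 was 0.54 higher at 35 °C and TAH11 0.43 lower (difference -0.43).

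ORC6 was the licensing gene nearest to the threshold. Orc6 is the ORC subunit that contacts Cdt1 and is a target of cyclin-dependent kinase. Its transcript stood at 10.01, 10.13, 10.18, 10.19 and 10.22 at 35 °C, against 9.93, 9.88, 9.81, 10.01 and 9.76 at RT, so the groups met only at the lowest 35 °C array, cdc53-1, and the highest RT array, skp1-11. It was higher at 35 °C in 5 of 5 strains, by 0.08 to 0.46, as were 21.7% of all genes. The mean was 10.15 ± 0.08 at 35 °C and 9.88 ± 0.10 at RT (SD, n = 5 each), a difference of 0.27 (interval 0.09 to 0.45), or 1.21-fold. The limma p was 0.00925 before and 0.0514 after adjustment, which misses the threshold; it passed with an adjusted p of 0.0397 when the 20% of genes with the lowest levels were left out, and ranged up to 0.147 under the other settings tried.

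ORC1, the ATPase subunit of ORC that works with Cdc6 in loading, ran the other way. It stood at 10.22, 10.54, 9.98, 10.29 and 11.00 at 35 °C, against 10.60, 10.66, 10.52, 10.60 and 10.74 at RT. The RT arrays lay close together, while those at 35 °C spread widely, with cdc4-3 lowest and skp1-25 highest. Of the 5 strains 4 were lower at 35 °C, by -0.12 to -0.54, and skp1-25 was higher by 0.26. The mean was 10.40 ± 0.39 at 35 °C and 10.62 ± 0.08 at RT (SD, n = 5 each), a difference of -0.22 (interval -0.50 to 0.07, limma adjusted p = 0.241). The difference was -0.34 without skp1-25 and -0.14 without cdc4-3 (limma adjusted p = 0.0719 and 0.518).

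**Figure D2:**
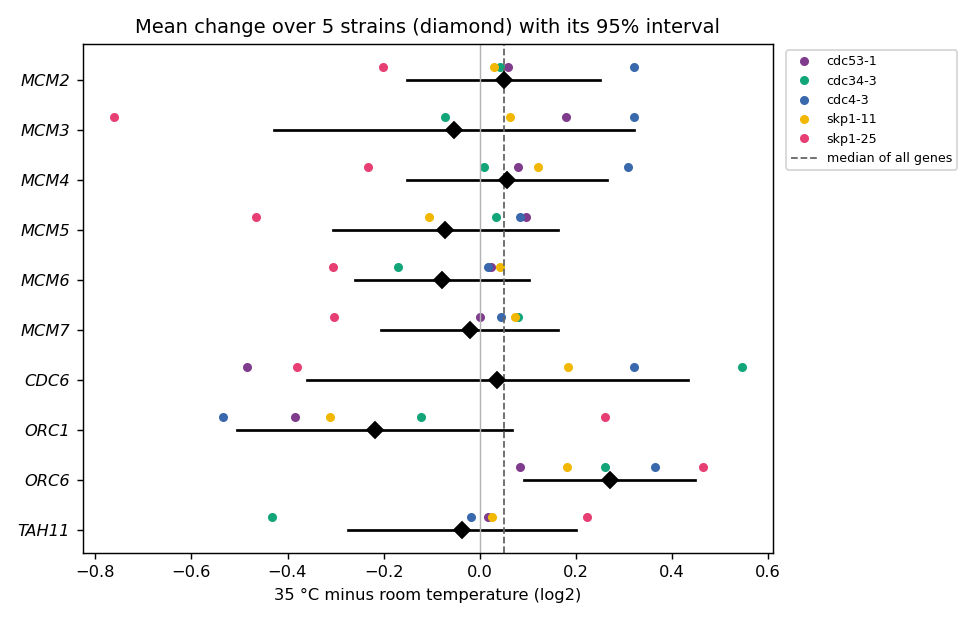
Change of each licensing gene (35 °C minus RT, log2) in each strain (coloured points) with the mean over 5 strains (diamond) and its 95% interval from limma (bar); the dashed line is the median of all genes, 0.05. The interval of ORC6 alone lies to the right of 0, and the skp1-25 points are leftmost in all 6 MCM rows.

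The remaining ORC genes showed no call either. ORC2, ORC3, ORC4 and ORC5 were measured, with 0 of 4 past the test, against 17.6% of all genes, and a median difference of 0.06. The largest was ORC3, 0.18 ± 0.22 (SD of 5 changes, limma adjusted p = 0.223). ORC4, 0.13 ± 0.09, was the only one of the 4 above 0 in all 5 strains (0.28, 0.12, 0.08, 0.08 and 0.07, limma adjusted p = 0.194). Of all genes, 21.7% were above 0 in all 5 strains. ORC1 and ORC6 lay on opposite sides of their fellow subunits, at -0.22 and 0.27, though neither passed. Of 4 further genes linked to helicase loading in yeast, NOC3, IPI1, IPI3 and RIX1, which also serve ribosome assembly, 0 passed. NOC3 differed by -0.19 ± 0.18 and IPI1 by 0.21 ± 0.22 (limma adjusted p = 0.154 and 0.167).

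Within single strains, changes have no replicate and are given as descriptions. A change of 0.5 log2 units (1.41-fold) or more either way was reached by 0 of 10 licensing genes in cdc53-1, against 19.3% of all genes. In cdc34-3 it was reached by 1 of 10, CDC6, against 18.7%, and in cdc4-3 by 1 of 10, ORC1, against 20.1%. In skp1-11 it was 0 of 10, against 16.4%, and in skp1-25 1 of 10, MCM3, against 13.6%. Each count lay below the share of all genes on the deposited scale. Counts this small, out of 10 genes, are not read as a difference from that share. With each array centred on its median the counts became 1 in cdc53-1 (CDC6), against 19.3% of all genes on that scale, and 0 in cdc34-3, against 18.4%. In skp1-25 the count became 2 (MCM3 and MCM5), above the share of 13.4%.

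In skp1-25 the 6 MCM genes lay on the same side. On the deposited scale they did so in cdc53-1 and cdc4-3 as well, where all 6 were above 0. With centred arrays, 2 of the 6 in cdc53-1 and 3 in cdc4-3 lay below 0. All 6 were lower at 35 °C in skp1-25, by -0.20 (MCM2) to -0.76 (MCM3). In that strain 47.2% of all genes were below 0 and the median gene changed by 0.015. The MCM median was -0.30 in skp1-25, against 0.07 in cdc53-1, 0.02 in cdc34-3, 0.20 in cdc4-3 and 0.05 in skp1-11. It stayed at -0.35 and -0.36 in skp1-25 when arrays were centred or quantile normalized, while the small medians of cdc34-3 and skp1-11 changed sign. In cdc4-3 MCM2, MCM3 and MCM4 were each 0.31 to 0.32 higher at 35 °C, but the MCM median there was 0.07 on either of the other scales, and the median gene changed by 0.10.

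The low value rested on both arrays of skp1-25. The mean level of the 6 genes was 11.00 in skp1-25 at 35 °C, the lowest of the 10 arrays, and 11.38 in skp1-25 at RT, the highest. The other 35 °C arrays had means of 11.17, 11.05, 11.36 and 11.26, against 11.09, 11.06, 11.18 and 11.22 in the other RT arrays. ORC1, ORC6 and TAH11 were higher at 35 °C in the same strain, by 0.26, 0.46 and 0.22, so the licensing genes did not share 1 direction there, and CDC6 was lower with the MCM genes.

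**Figure D3:**
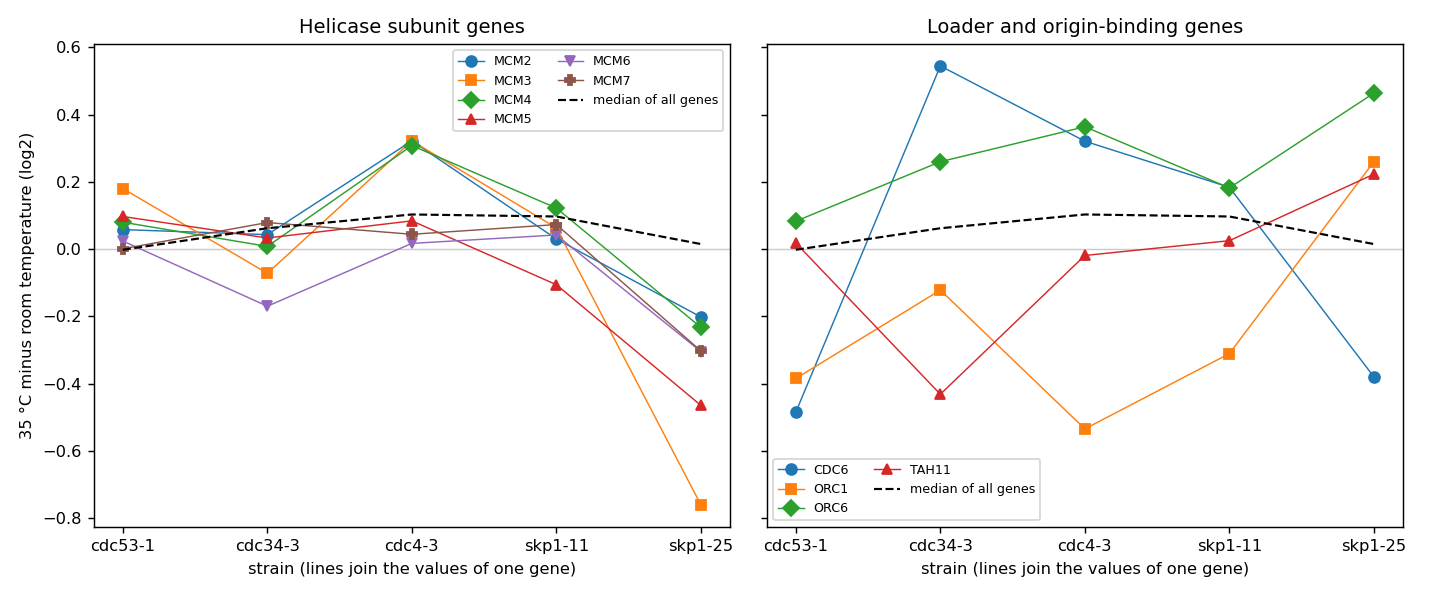
Change of each gene (35 °C minus RT, log2) by strain, with the 6 helicase genes in the left panel, the other 4 licensing genes in the right panel and the median of all genes dashed. The helicase genes lie between -0.17 and 0.32 in 4 strains and between -0.76 and -0.20 in skp1-25, while CDC6, ORC1, ORC6 and TAH11 follow separate courses.

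Differences in change between strains were then tested, to ask whether a licensing gene was set apart in 1 strain or in both skp1 strains. Each allele came in its own strain, with 1 array per temperature. Allele, strain background and the error of a single array therefore cannot be told apart in these contrasts. Each contrast rests on 1 change for the named strain, which is assumed to vary like the others, and genes with a difference under 0.3 are not described singly. The contrast of skp1-25 against the other 4 strains was added after the MCM values were seen, so its differences are given as descriptions. In it 0 of 5449 genes passed, 0%, with a smallest limma adjusted p of 1.00. MCM3 changed by -0.76 in skp1-25 against a mean of 0.12 in the others, a difference of -0.88. MCM5 differed by -0.49 and ORC1 by 0.60. MCM2, MCM4 and MCM7 differed by -0.32, -0.36 and -0.35, CDC6 by -0.52 and TAH11 by 0.33 (0.21 without cdc34-3), and all had limma adjusted p = 1.00.

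The other skp1 allele gave smaller values, with the MCM genes between -0.11 and 0.12 in skp1-11. Both skp1 strains against the other 3 gave 0 calls among all genes, 0%, and 168 genes with an unadjusted limma p under 0.05, none of them a licensing gene. MCM3 differed by -0.49 in that contrast, MCM5 by -0.36 and ORC1 by 0.32 (limma adjusted p = 0.996 for each). Without skp1-25 the differences of MCM3, MCM5 and ORC1 were -0.08, -0.18 and 0.04, and without skp1-11 they were -0.90, -0.54 and 0.61.

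The contrast of cdc53-1 gave 0 calls, 0%, with 477 genes at an unadjusted limma p under 0.05 and 0 licensing genes among them. CDC6 showed the largest difference of the 10, -0.48 in cdc53-1 against 0.17 in the others, or -0.65 (interval -1.51 to 0.21, limma adjusted p = 0.757). For cdc34-3 there were again 0 calls, 0%. TAH11 changed by -0.43 in cdc34-3 against 0.06 in the others, a difference of -0.49 (limma adjusted p = 0.607). CDC6 differed by 0.64 (-0.26 to 1.53, limma adjusted p = 0.734).

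For cdc4-3, the strain with the altered F-box protein, 0 genes passed, 0%, and 197 had an unadjusted limma p under 0.05, with 0 licensing genes among them. MCM2, MCM3, MCM4 and CDC6 were higher in cdc4-3 than in the others by 0.34, 0.47, 0.31 and 0.36, and ORC1 was lower (difference -0.40), all with limma adjusted p = 1.00. Single strains moved these values: without skp1-25 MCM3 differed by 0.27 and ORC1 by -0.26, and CDC6 differed by 0.20 without cdc53-1 and by 0.55 without cdc34-3.

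Strain levels, averaged over both temperatures, were compared with an F-test of the 5 strain effects. It called 477 of 5449 genes, 8.75%, and 0 of 10 licensing genes, with adjusted p from 0.139 (CDC6) to 0.835 (ORC6). CDC6 was highest in skp1-11 at 10.37, followed by cdc34-3 at 9.96, cdc4-3 at 9.88, skp1-25 at 9.55 and cdc53-1 at 9.30. The ends of that order lay 1.07 apart, with an unadjusted p of 0.0378 in limma's F-test. ORC1 ran from 10.87 in skp1-25 to 10.25 in cdc4-3 and TAH11 from 11.08 in skp1-25 to 10.69 in cdc34-3, with limma adjusted p of 0.221 and 0.276.

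The MCM genes had no common order of strains. Skp1-11 was highest for MCM2 (11.39) and MCM6 (11.19), cdc4-3 for MCM3 (11.17) and MCM7 (11.88), cdc34-3 for MCM4 (11.39) and cdc53-1 for MCM5 (10.81). Cdc34-3 was lowest for MCM3, MCM5, MCM6 and MCM7, and cdc53-1 for MCM2 and MCM4. ORC6 was the flattest, with 0.14 from skp1-11 at 10.10 to cdc53-1 at 9.97. Of the 40 pairs of neighbours in these orders, 0 had a 95% interval that left out 0, and the intervals reached 0.282 to 0.627 to each side. The largest gap between neighbours was 0.41, for CDC6 between skp1-11 and cdc34-3 (interval -0.22 to 1.04).

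Regulators of the same stage of the cell cycle were read beside these values. Of the early cell cycle box factors, MCM1 changed by -0.27 to 0.10 across strains (limma adjusted p = 0.589), while its partner repressors varied widely. YOX1 changed by -1.76, 1.27, 0.91, 0.47 and 0.05, and YHP1 by -1.16, 1.46, 0.53, 0.34 and 0.63 (limma adjusted p = 0.790 and 0.488). In cdc53-1 and cdc34-3, where these 2 genes lay furthest apart, CDC6 changed by -0.48 and 0.54, and the MCM medians were 0.07 and 0.02. In cdc4-3, skp1-11 and skp1-25 CDC6 changed by 0.32, 0.18 and -0.38, so in skp1-25 it was lower while both repressor genes were above 0. A link between these genes was not tested. SWI4 and CLN3, other genes with early cell cycle boxes, differed by -0.24 ± 0.19 and 0.12 ± 0.33 (limma adjusted p = 0.0983 and 0.529). In this list 0 of 5 genes passed the test for temperature, against 17.6% of all genes.

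SWI5, which activates CDC6, fell by 0.84 ± 0.36 with temperature, lower in 5 of 5 strains (-1.21, -0.99, -0.88, -0.86 and -0.24; limma adjusted p = 0.0121). SIC1, another Swi5 target, changed by 0.09, 0.27, 0.60, 0.05 and -0.29, and ASH1, a daughter-cell repressor, by 0.86, 0.73, 0.95, 0.12 and -0.42 (limma adjusted p = 0.455 and 0.184). RME1, a regulator of G1 and meiosis, changed by -1.16 in skp1-25, against -0.38 to 0.18 elsewhere.

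Late G1 genes split between cdc53-1 and the other strains. The 4 cyclin genes CLN1, CLN2, PCL1 and PCL2 had a median change of -1.86 in cdc53-1 against 1.39, 0.38, 0.24 and 0.08 in the others. The 9 genes of the MBF list, which are expressed at the start of S phase, had -1.06 against 0.47, 0.18, -0.01 and -0.12. All 9 were lower in cdc53-1 than the mean of the others, as were 60.9% of all genes, with a median difference of -1.32. TOS4 differed by -1.99 and RNR1, the ribonucleotide reductase gene, by -1.94 (limma adjusted p = 0.298 for both). In the same contrast 0 of 6 MCM genes were lower in cdc53-1, and their median difference was 0.08.

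Firing factors turn a loaded helicase into an active one, and 12 of their genes were measured. The test for temperature was passed by 0 of them, against 17.6% of all genes. CDC45 changed by -1.17 in cdc53-1 against a mean of 0.17 in the others, a difference of -1.34, and SLD2 by -1.22 against 0.08, a difference of -1.29 (limma adjusted p = 0.298 for both). CDC7, the kinase that phosphorylates the helicase, differed with temperature by 0.25 ± 0.16 and PSF3, a GINS subunit, by 0.23 ± 0.17 (limma adjusted p = 0.0659 and 0.0963). Each was above 0 in 5 of 5 strains, as were 21.7% of all genes. MCM10, a factor that is no part of the ring, differed by 0.36 ± 0.36 (limma adjusted p = 0.114).

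Mitotic genes of the CLB2 cluster were the list with most calls, 5 of 8 lower at 35 °C and 0 higher. Over all 5449 genes, 251 were called lower and 706 higher, 17.6% in both directions together. CDC20, which switches on the anaphase-promoting complex, changed by -1.07 ± 0.17, KIN3 by -0.67 ± 0.25, CDC5 by -0.79 ± 0.33 and CLB2 by -0.83 ± 0.44 (limma adjusted p = 0.00196, 0.0102, 0.0113 and 0.0195), and IQG1 was the other gene called. The median change of the cluster was -0.78, -0.46, -0.84, -0.44 and -0.22. Low values in skp1-25 were not limited to the MCM genes. The a-specific list had a median change of -0.83 there, against -0.40, -0.31 and -0.11 in cdc34-3, cdc4-3 and skp1-11. The haploid-specific list had -0.29 in skp1-25, against -0.22, -0.05 and -0.08 in the same strains. In cdc53-1, where both lists stood at far lower levels at either temperature, the median changes were -0.02 and 0.40. SIC1, ASH1 and RME1 changed by -0.29, -0.42 and -1.16 in skp1-25, while SWI5 had its smallest fall there, -0.24. The lists were written with earlier results of these data known, and the part of cell cycle position in any of these values was not tested.

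**Figure D4:**
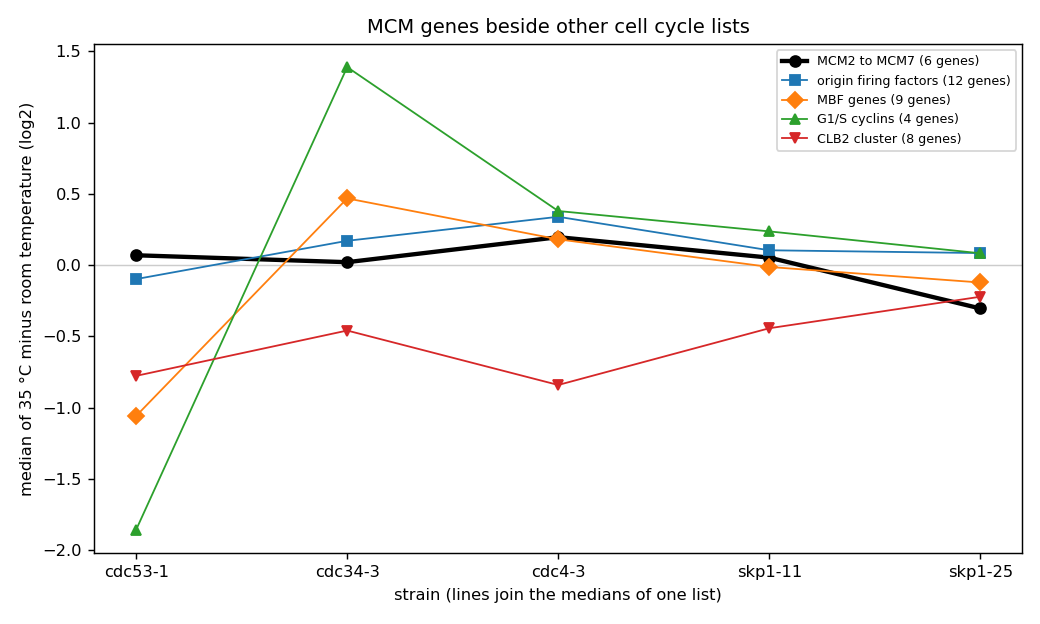
Median change (35 °C minus RT, log2) by strain for the 6 MCM genes (thick black line) and 4 other cell cycle lists, with the number of measured genes in the legend. The G1 cyclin and MBF lists split between cdc53-1 (-1.86 and -1.06) and cdc34-3 (1.39 and 0.47), and the MCM line stays between 0.02 and 0.20 outside skp1-25.

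Co-variation within the licensing genes was described over the 10 arrays, in which both arrays of a strain share its background and all arrays share their normalization. The 15 pairs of MCM genes had Pearson r from 0.03 (MCM4 with MCM6) to 0.86 (MCM5 with MCM6), with a median of 0.49. MCM3 paired closely with MCM7 and MCM6, with r of 0.82 and 0.80. The 30 pairs with at least 1 of the other 4 genes ranged from -0.54 (MCM5 with ORC1) to 0.66 (MCM2 with CDC6), with a median of -0.13. ORC1 ran against all 6 MCM genes, with r from -0.54 to -0.29.

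Among the 2720 genes above the median level, those with the pattern most like the mean of the 6 MCM genes were ACO1, PTM1, DBF2, CKA1 and RHO5, with Pearson r of 0.90, 0.87, 0.85, 0.81 and 0.76 over the 10 arrays. The median r of all genes with that mean was 0.04. These 5 genes were picked for the highest r, so high values come with that choice. The MCM mean was lowest in skp1-25 at 35 °C and highest in skp1-25 at RT, so that strain weighs on the ranking. ACO1, which encodes mitochondrial aconitase, changed by 0.04, -0.03, 0.34, 0.15 and -0.56, and DBF2, a kinase gene of mitotic exit, by 0.26, -0.27, 0.09, -0.06 and -0.41. Of the licensing genes outside the ring, CDC6 had r = 0.33 with the MCM mean, TAH11 0.15, ORC6 -0.19 and ORC1 -0.53.

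**Figure D5:**
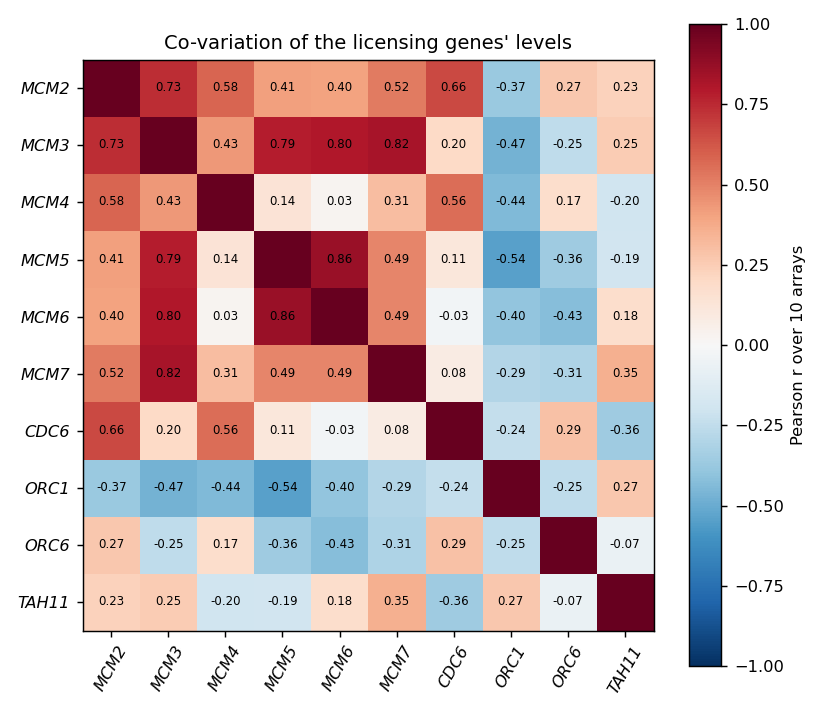
Pearson r between the levels of each pair of licensing genes over the 10 arrays, from -1 (blue) to 1 (red), as a description with no test. The MCM block is positive throughout, from 0.03 to 0.86, and the ORC1 row is negative against all 6 MCM genes.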

How the data were processed

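Biotin-labelled cRNA from total RNA was hybridised to Affymetrix arrays, per the labels' protocols. The authors' deposited values were used as a log2 expression table, with the base inferred from the range; how probes were summarised, corrected and normalized is not given in the sources used here. Of 5716 probe sets, 5498 had 1 gene symbol in the platform annotation, 0 had several and 218 were unnamed. Symbols were updated through RefSeq names, and the brightest probe set of each gene gave 5449 genes, with none left out for a low level.

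Tests used limma 3.58.1 under R 4.3.3 (lmFit, eBayes, two-sided, Benjamini-Hochberg over all genes, 95% moderated intervals) and were tested on simulated data. Strain was a block because both arrays of a pair carry 1 allele and strain name; deviations from the temperature means correlated at 0.43 to 0.77 within strains and at most 0.12 between them. The number of arrays limits the precision. Members and lists were chosen with earlier results of these data known. All members are named; from each other list up to 4 genes with the largest statistic for temperature and 4 for the cdc53-1 contrast, besides the fixed regulators MCM1, YOX1, YHP1, SWI4, CLN3, SWI5 and SIC1. Alternatives changed scaling, probe sets, the filter, the variance prior, the block and the strains. A planned promoter motif search was not run, and no sequence was used here. The summary of 1 gene list is left out here.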

Additional observations from a re-analysis of the deposited data

Results flagged for a closer look

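Each licensing gene was checked for a strain far from the other 4 in its level at 35 °C, its level at RT and its change, which made 30 groups of 5 values, and chance alone marks about 1 group in 20. There were 3 such values. MCM7 in cdc4-3 at 35 °C stood at 11.91, against 11.65 to 11.71 in the other 4 strains, and the gap was 0.770 of the whole range. The change of MCM7 in skp1-25 was -0.30, against 0.00 to 0.08 elsewhere, with a gap of 0.796 of the range. CDC6 in skp1-11 at RT stood at 10.28, against 9.55 to 9.74 in the other strains, with a gap of 0.734 of the range.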

How the results depend on the processing

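Under every alternative run, 0 of 10 licensing genes passed in the strain levels and in the 5 contrasts of change, and for temperature 1 gene, ORC6, passed when the lowest 20% of genes by level was left out, with fewer genes tested (difference 0.27 as before). Genes past the temperature test ranged from 371 to 663 when each strain was left out in turn, with 371 without cdc4-3 and 488 without skp1-11, and numbered 349 with no replicate block, 282 of them higher; dropping the pairing changed no other call among the licensing genes. Centring arrays shifted the median of all genes to -0.02 and quantile normalization to -0.03, with 51.0% and 47.9% of calls higher in place of 73.8%. Genes called for strain levels ranged from 162 to 459 with a strain left out: 162 without skp1-11, 208 without cdc4-3, 279 without cdc53-1 and 280 without skp1-25. Mean changes near 0 altered their sign. With centring and quantile normalization in that order, CDC6 came to -0.0373 and -0.0294, MCM2 to -0.0241 and -0.0254, and MCM4 to -0.0173 and -0.0182. With a strain left out, CDC6 ranged from -0.09 to 0.17, MCM2 from -0.0178 to 0.113, MCM3 from -0.15 to 0.12, MCM4 from -0.00575 to 0.13, MCM5 from -0.114 to 0.027, MCM7 from -0.0463 to 0.0493 and TAH11 from -0.102 to 0.0618; the cause was not tested. MCM3, MCM5 and MCM7 turned positive without skp1-25, TAH11 without cdc34-3, and CDC6 negative without cdc34-3 or cdc4-3. The number of arrays, 1 per strain and temperature, limits every contrast between strains.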
